A study of Mus musculus with 12 samples.

Results

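The 10 genes described here are factors and targets of the transcriptional coactivators YAP and TAZ: Yap1, Wwtr1 (which encodes TAZ) and Tead1 as factors, Lats2, Amotl1 and Amotl2 as regulators, and Ccn2 (Ctgf), Ccn1 (Cyr61), Ankrd1 and Axl as target genes. They were chosen by name, through their Ensembl mouse gene IDs, and all 10 were found among the 37583 gene IDs of the count files and among the 14904 genes that entered the test. RNA was sequenced from Ocy454 cells, an osteocyte line from mouse long bone that carries a temperature-sensitive T antigen, after 14 days at 37 °C. The 12 libraries form 4 groups of 3: control cells and HDAC4/5 double knockout (DKO) cells, each kept static or exposed for 3 h to fluid flow shear stress (FFSS). FFSS was produced by orbital rotation of the dishes, and per the study's methods the line was a single-cell sub-clone into which Cas9 and guide RNAs were brought by lentivirus. The labels call the control cells the original cells, whereas the study's methods give them a lentivirus with no guide, and which of these the control libraries were is not settled by the counts. Whether the DKO cells were 1 clone is not given in the sources used here, and every control library came from 1 line and every DKO library from another, so genotype and cell line cannot be told apart.

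YAP and TAZ carry no DNA-binding domain of their own and act on genes through the TEAD family of DNA-binding proteins. The Hippo kinases, among them LATS2, phosphorylate YAP and TAZ and keep them in the cytoplasm, while angiomotin family proteins such as AMOTL1 and AMOTL2 bind and retain them. Stretch, flow and a stiff matrix are known to release YAP and TAZ to the nucleus, and Ccn2, Ccn1 and Ankrd1 are the genes most often measured to follow this in bone cells and elsewhere.

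The TEAD core motif was looked for in the promoters because TEAD proteins are the DNA-binding partners of YAP and TAZ. In the RefSeq promoter table (GRCm38.p6, another build than that of the counts) 8 of the 10 genes had a window, 10 windows in all, and the 250 bases before each start were searched for GGAATG on either strand, read as CATTCC on the other. The motif occurred before 6 of the 8 genes (Ccn1, Ankrd1, Amotl2, Axl, Wwtr1 and Yap1) and in 7 of the 10 windows, against 12.6% of all 32851 windows of that length. Ankrd1 held 2 matches, and 1.02% of all windows held 2 or more. The stretches of 30 bases around each match are shown 5′ to 3′ on the gene's strand, with the motif in capitals, to show the motif in the target genes and factors described here. Of these 6 genes 5 were lower in static DKO than in static control cells, where 27.2% of all genes tested were lower. So was Amotl1, which held no match. Ccn2 and Tead1 had no window and are outside this tally. Tead1 overlapped between the static genotypes, and all static DKO libraries of Ccn2 lay above all static control ones. Whether the motif has a part in these differences was not tested.
Ccn1: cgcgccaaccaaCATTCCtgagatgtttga
Amotl2: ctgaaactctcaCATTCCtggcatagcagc
Ankrd1, distal: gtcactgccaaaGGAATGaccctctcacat
Ankrd1, proximal: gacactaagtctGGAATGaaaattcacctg
Axl: ggaaattctacaGGAATGtttaccagaccc
Wwtr1: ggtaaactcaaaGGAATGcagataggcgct
Yap1: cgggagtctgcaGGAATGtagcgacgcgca

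In GRCm38.p6 these stretches lie at chr3:145650071-145650100 (Ccn1, minus strand), chr9:102717727-102717756 (Amotl2, plus strand), chr19:36120037-36120066 and chr19:36119950-36119979 (Ankrd1, minus strand), chr7:25788949-25788978 (Axl, minus strand), chr3:57576029-57576058 (Wwtr1, minus strand) and chr9:8004720-8004749 (Yap1, minus strand). The match nearest to a start was that of Amotl2, whose first base lay at -65, and the farthest was that of Axl at -233. The Wwtr1 match lay before both starts listed for that gene, at -136 and -170. In Ccn1 and Amotl2 the motif read CATTCC on the gene's strand and in the other genes GGAATG. The windows of Amotl1 and Lats2 held no match. The AP-1 motif TGANTCA occurred before 0 of the 8 genes (6.75% of all windows), and the CArG box, to which SRF binds, also before 0 (1.47%). A match of letters is a description of the sequence and does not show that a protein binds there.

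**Figure D1:**
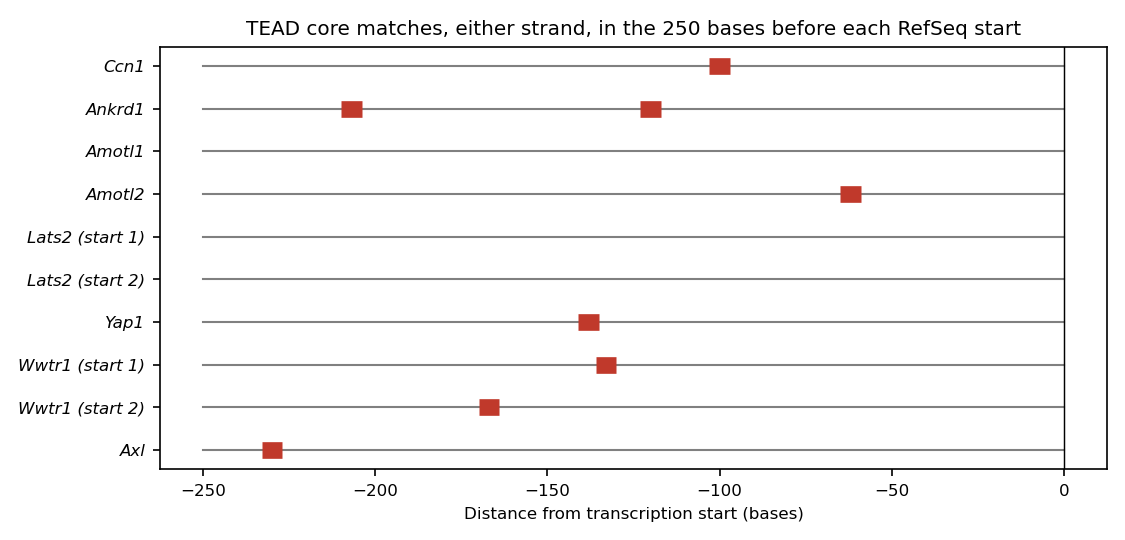
Positions of the TEAD core motif (red) before the transcription starts of the 8 genes with a promoter window; the x axis is the distance from the start in bases, and genes with 2 starts have 2 lines. The matches lie between 233 and 60 bases before the start, and the lines of Amotl1 and Lats2 are empty.

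The libraries held 17585225 to 19174118 reads assigned to genes, and the 10 genes had between 124 reads (Ankrd1) and 17062 reads (Ccn1), so that counting error alone was 8.98% at the lowest value and 0.766% at the highest. Levels are given as CPM, in which each library's reads are scaled to a common size by the trimmed mean of M values (TMM). Replicates were samples numbered by the labels, which do not say that they came from separate cultures, so the p-values measure the spread between these samples, which may be technical. The test estimated 1 spread per gene from all 4 groups together. Each SE and p-value therefore also reflects libraries of groups outside its comparison. Reads over Hdac4 and Hdac5, the targeted genes, were fewer in static DKO than in static control cells (log2 fold change -0.85 and -0.65, adjusted p = 0.000102 and 7.94e-06, edgeR) but were present in every DKO library, at 12.1 to 16.9 and 80.1 to 93.2 CPM. A second, shorter Hdac4 gene ID stood at 21 to 24.9 CPM in static control and 16.1 to 18 CPM in the DKO libraries (-0.39 in static cells, adjusted p = 0.0281). Under FFSS Hdac5 did not pass between the genotypes (log2 fold change 0.19, adjusted p = 0.0512), at 71.1 to 90.1 CPM in control and 92.3 to 93.2 CPM in DKO libraries, all of which lay above all control libraries. Counts over a whole gene do not show whether its product is lost. The summed level of 8 osteocyte markers was 212 to 266 CPM in static control and 3840 to 3930 CPM in static DKO libraries; Sost, which marks mature osteocytes, had only 28 to 236 reads in the static control libraries. The summed level of 8 chondrocyte markers was 94.2 to 122 and 2410 to 3010 CPM in the same groups. The summed levels of 5 muscle and 5 endothelial markers were at most 0.26 and 1.02 CPM in any library. The summed level of 4 haematopoietic markers was 23.9 to 28.5 CPM in static control and 2.8 to 3.29 CPM in static DKO libraries, nearly all of it Cd68 (log2 fold change -3.46, adjusted p = 1.88e-09); Csf1r was higher in DKO (1.17, adjusted p = 0.0161) at 0.26 to 0.833 CPM, and the defining markers Ptprc and Adgre1 had at most 1 read in any static library. That of 4 adipocyte markers was 2.03 to 2.53 and 0.384 to 1.28 CPM, nearly all of it Fabp4.

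1 library stood apart. Control FFSS replicate 1 differed from control FFSS replicates 2 and 3 by a chi-square of 63.8 and 58.0 per degree of freedom over all genes, whereas replicates 2 and 3 differed from each other by 6.45. Reads that fell outside annotated genes made up 5.87% of this library, 9.19% and 10.04% of replicates 2 and 3, and 5.10% to 5.21% of the static control libraries. The results that rest on it are therefore given with all 12 libraries and, beside them, without it. It also entered comparisons of the other groups through the shared spread. Between the static genotypes the values without it are given for the number of genes and for Ccn2, Ccn1, Ankrd1, Amotl2 and Tead1.

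Per length of exon, Ccn1 was the most abundant of the 10 genes in every group, at 329 ± 12.3 RPKM (CPM per kilobase of exon; SD, n = 3) in static control and 160 ± 14.6 RPKM in static DKO cells. Tead1 had the lowest value, at 3.12 ± 0.246 and 3.28 ± 0.238 RPKM. Of its 11235 exon bases 3846 are shared with a second Tead1 gene ID on the same strand that had 0 reads in these libraries, so that reads in the shared part could be assigned to neither ID and its place in the order per length is uncertain. In static control cells the levels per length fell in the order Ccn1, Amotl2, Wwtr1, Axl, Ccn2, Ankrd1, Yap1, Amotl1, Lats2 and Tead1, and no 2 neighbours in this order overlapped. In static DKO cells Ccn2 stood second, at 63.9 ± 1.38 RPKM, and Ankrd1 stood ninth, at 4.51 ± 0.692 RPKM against 27.2 ± 1.23 RPKM in static control cells. There Amotl2 (35.1 ± 1.59 RPKM) and Axl (35.0 ± 1.16 RPKM) overlapped.

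**Figure D2:**
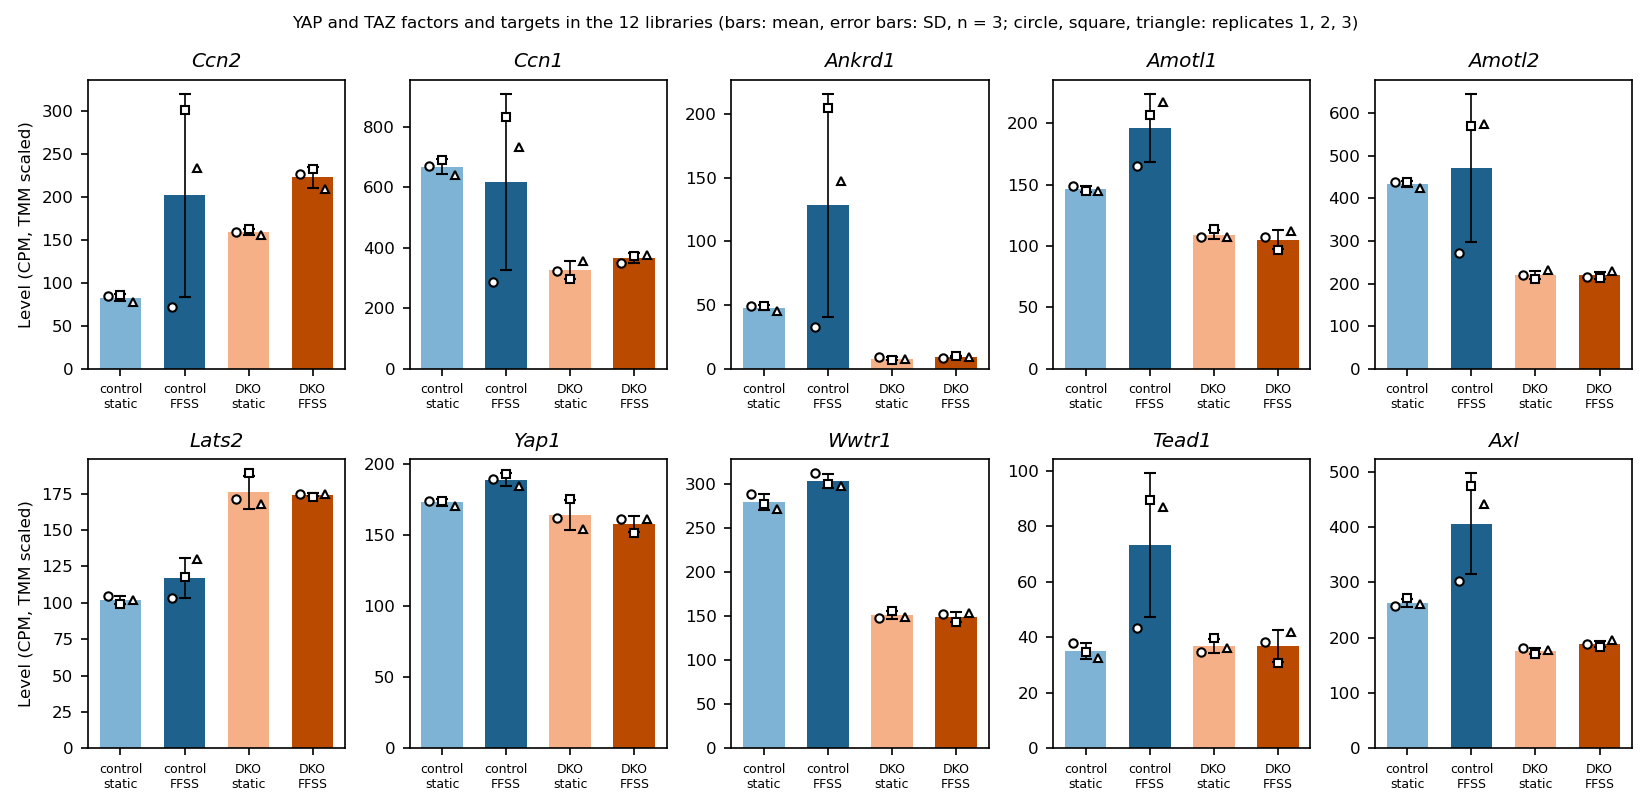
Level of each gene (y axis, CPM scaled by TMM, linear from 0) in the 4 groups; bars are means, error bars the SD of 3 libraries, and circles, squares and triangles replicates 1, 2 and 3. In control FFSS cells the circle lies under the square and the triangle for Ccn2, Ccn1, Ankrd1, Amotl1, Amotl2, Lats2, Tead1 and Axl, and Wwtr1 is lower in all 6 DKO than in all 6 control libraries.

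The first comparison asked how the DKO cells differed from control cells when no flow was applied. Of the 10 genes 7 passed the test (adjusted p under 0.05, edgeR quasi-likelihood test), 6 lower and 1 higher in DKO, where 54.2% of all genes tested passed, 27.2% lower and 27.0% higher. The 6 lower genes were Ankrd1, Ccn1, Amotl2, Wwtr1, Axl and Amotl1, and the higher one was Lats2. The median log2 fold change was -0.50 over the 10 genes and 0.01 over all genes tested. Ankrd1 and Ccn1 also changed by more than 2-fold, as 15.3% of all genes did. The number was 1 without DKO static replicate 1 or 2 and 3 without replicate 3. When control FFSS replicate 1 was left out, 8 of the 10 genes passed, 2 of them higher, where 63.8% of all genes passed. Of these, 2 exceeded 2-fold, where 16.2% of all genes did. In 8 of the 10 genes the 2 groups did not overlap, as in 69.0% of all genes tested. In the same comparison 5 of 7 osteocyte markers tested were higher in DKO and 2 lower, and 5 of 7 chondrocyte markers were higher, while Cd68 and Fabp4, which make up nearly all of the haematopoietic and adipocyte sums, were lower. The summed level of 6 osteoblast markers was 19600 to 23600 CPM in static control and 58200 to 65600 CPM in static DKO libraries, and 2 of the 6, Col1a1 and Bglap, passed, both higher. Reads outside annotated genes made up 5.10% to 5.21% of the static control and 7.07% to 7.14% of the static DKO libraries. The part of these markers and of this share in the differences described here was not tested. In bulk RNA, fewer cells that use a gene and less of its RNA per cell cannot be told apart.

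Among the factors Wwtr1 passed and its close relative Yap1 did not. Wwtr1 (chr3:57259571-57379832, mm9, minus strand) stood at 289, 277 and 271 CPM in static control and at 148, 156 and 149 CPM in static DKO libraries, and the groups did not overlap. Its log2 fold change was -0.89 ± 0.05 (SE), or 1.85-fold lower (adjusted p = 6.30e-09). Yap1 (chr9:7931999-8004596, minus strand) stood at 174, 174 and 170 CPM in control and at 162, 175 and 154 CPM in DKO, which overlap, and its log2 fold change of -0.08 had a 95% interval from -0.20 to 0.04. With library totals alone as the scaling, Yap1 passed at -0.16 (adjusted p = 0.0342). Tead1 (chr7:119822832-120050319, plus strand), one of the DNA-binding partners, also overlapped between the genotypes, at 32.5 to 38.0 CPM in control and 34.6 to 39.8 CPM in DKO. Its log2 fold change was 0.07 (95% interval -0.47 to 0.61, or -0.11 to 0.25 without control FFSS replicate 1). With the share of reads outside genes as a covariate it was -0.44 (adjusted p = 0.00565).

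The ratio of Wwtr1 to Yap1 within a library needs no scaling between libraries. Per length of exon it was 3.22, 3.08 and 3.09 in static control and 3.19, 3.01 and 3.13 in control FFSS libraries. In DKO cells it was 1.77, 1.73 and 1.87 in static and 1.82, 1.83 and 1.84 in FFSS libraries. The genotypes did not overlap, and the FFSS values of each genotype overlapped its static values; control FFSS replicate 1, at 3.19, lay within the control range.

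**Figure D3:**
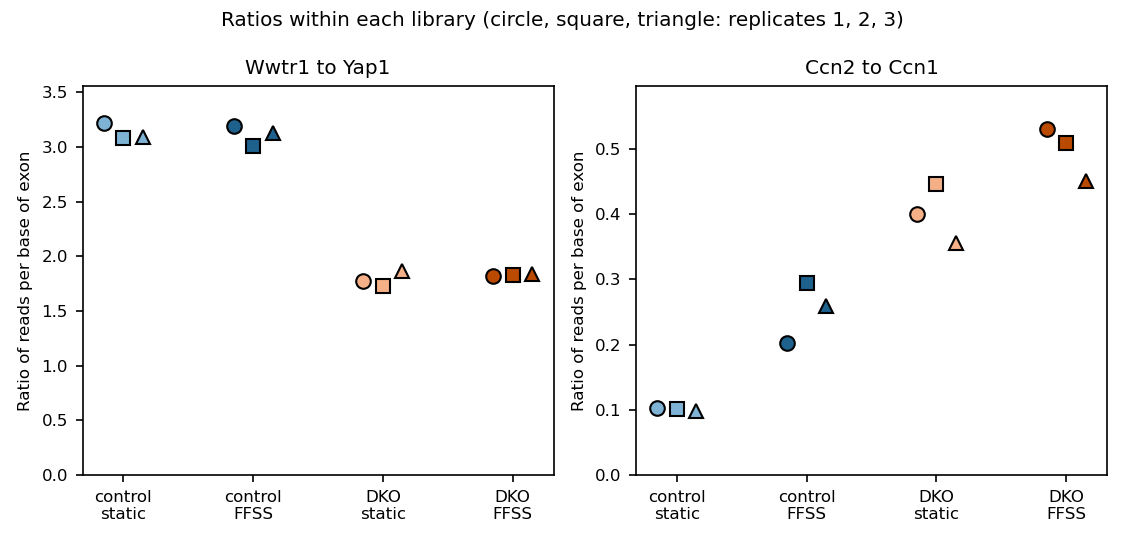
Ratio of reads per base of exon, Wwtr1 to Yap1 (left) and Ccn2 to Ccn1 (right), in each library of the 4 groups; axes are linear from 0 and circle, square and triangle are replicates 1, 2 and 3. The Wwtr1 to Yap1 ratio lies between 3.01 and 3.22 in control and between 1.73 and 1.87 in DKO libraries; the Ccn2 to Ccn1 ratio is 0.0987 to 0.103 in static control and 0.451 to 0.531 in DKO FFSS libraries.

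The regulators differed in opposite directions. Lats2 (chr14:58260914-58377225, minus strand), a kinase that inactivates YAP and TAZ, stood at 105, 99.4 and 102 CPM in static control and at 171, 189 and 168 CPM in static DKO libraries. It was 1.72-fold higher in DKO, with a log2 fold change of 0.78 ± 0.08 (adjusted p = 1.01e-06). Lats2 shares 332 exon bases with Xpo4 on the same strand, whose count was 20.1% of that of Lats2, so a part of its reads could be assigned to neither gene. Amotl2 (chr9:102619002-102635748, plus strand) stood at 439, 438 and 425 CPM in control and at 220, 211 and 231 CPM in DKO, 1.97-fold lower (log2 fold change -0.97 ± 0.23, adjusted p = 0.00446). Its log2 fold change was -0.98 ± 0.04 without control FFSS replicate 1 (adjusted p = 1.51e-17). Amotl1 (chr9:14346410-14447973, minus strand) was lower by less, at 149, 145 and 145 CPM against 107, 114 and 107 CPM (log2 fold change -0.42 ± 0.09, adjusted p = 0.00101). Neither gene overlapped between the genotypes.

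The 4 target genes did not behave alike. Ankrd1 (chr19:36186455-36194334, minus strand), an ankyrin-repeat protein of stretched muscle, had 937, 941 and 865 reads in static control and 168, 124 and 141 reads in static DKO libraries, or 49.5, 49.0 and 45.5 against 9.24, 6.80 and 7.83 CPM. It was 6.03-fold lower in DKO, the largest difference of the 10 genes (log2 fold change -2.59 ± 0.59, adjusted p = 0.00501). The log2 fold change was -2.59 ± 0.15 without control FFSS replicate 1 (adjusted p = 3.10e-09). Ccn1 (chr3:145309935-145312949, minus strand), a secreted matricellular protein, stood at 670, 690 and 641 CPM in control and at 323, 297 and 356 CPM in DKO. It was 2.05-fold lower (log2 fold change -1.04 ± 0.31, adjusted p = 0.0193), and its adjusted p was 0.0524 and 0.0599 when DKO static replicate 1 or 2 was left out. Leaving out control FFSS replicate 1, which is outside this comparison, gave -1.04 ± 0.06 (adjusted p = 4.13e-14). Axl (chr7:26542292-26573724, minus strand), a receptor tyrosine kinase, stood at 257, 271 and 261 CPM against 181, 170 and 178 CPM, 1.49-fold lower (log2 fold change -0.58 ± 0.12, adjusted p = 0.00159).

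Ccn2 (chr10:24315248-24318489, plus strand), the paralogue of Ccn1, went the other way. It stood at 85.1, 85.5 and 77.7 CPM in static control and at 159, 163 and 156 CPM in static DKO libraries, and the groups did not overlap. Its log2 fold change was 0.94 ± 0.41 and did not pass with all 12 libraries (adjusted p = 0.0813). It was again 0.94, and passed, with only the 6 static libraries in the fit (adjusted p = 7.74e-15), without control FFSS replicate 1 (2.07e-09, SE 0.07) or replicate 2 (0.0485), and with DESeq2 (0.0413). The ratio of Ccn2 to Ccn1 per length of exon was 0.103, 0.101 and 0.0987 in static control and 0.401, 0.446 and 0.356 in static DKO libraries.

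The second comparison asked how control cells responded to 3 h of FFSS. With all libraries 4 of the 10 genes passed, all higher (Ccn2, Tead1, Axl and Amotl1), where 35.8% of all genes tested passed and 17.7% were higher; 2 of them, Ccn2 and Tead1, also exceeded 2-fold, as 5.93% of all genes did. The median log2 fold change was 0.31 over the 10 genes and 0.01 over all genes. In 5 of the 10 genes all FFSS libraries lay above all static ones, as in 19.3% of all genes tested. Without control FFSS replicate 1, 9 of the 10 genes passed, all higher, where 55.0% of all genes passed, and 3 of them exceeded 2-fold (Ccn2, Ankrd1 and Tead1), where 11.3% did.

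In control FFSS replicates 2 and 3 all 10 genes lay above all 3 static control libraries, as did 40.6% and 40.8% of all genes tested. In replicate 1, 5 genes lay above them (Amotl1, Yap1, Wwtr1, Tead1 and Axl; 35.1% of all genes), Lats2 lay within, and 4 lay below (Ccn2, Ccn1, Ankrd1 and Amotl2; 38.3% of all genes). The genes that were low in replicate 1 thus include 3 of the 4 target genes.

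Ankrd1 showed the widest spread. It stood at 32.9 CPM in replicate 1 and at 205 and 147 CPM in replicates 2 and 3, or 68.5%, 426% and 307% of the static mean. Its log2 fold change was 1.42 ± 0.51 with all libraries, which did not pass by edgeR (adjusted p = 0.0587) but passed by DESeq2 (0.0213). By edgeR it also passed with library totals alone (adjusted p = 0.0443) and with the filterByExpr filter on low counts (0.0466). Without replicate 1 it was 1.87 ± 0.12 (adjusted p = 1.42e-08). Ccn2 stood at 71.4, 301 and 234 CPM, or 86.3%, 364% and 282% of the static mean. Its log2 fold change was 1.29 ± 0.41 (2.44-fold, adjusted p = 0.0383) and 1.69 ± 0.08 without replicate 1 (adjusted p = 2.77e-12). The call of Ccn2 was lost when any of the other 11 libraries was left out, with adjusted p from 0.0518 to 0.126, and with only the 6 control libraries in the fit (0.112). Without control FFSS replicate 2 or 3 the number of genes over 2-fold was 0.

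Ccn1 and Amotl2 lay below the static libraries in replicate 1 and above them in replicates 2 and 3. Ccn1 stood at 288, 833 and 733 CPM, or 43.1%, 125% and 110% of the static mean, and Amotl2 had 5297, 11655 and 11638 reads, or 62.7%, 131% and 133% of the static mean in CPM. Neither passed with all libraries: the log2 fold change was -0.11 for Ccn1 (95% interval -0.81 to 0.59) and 0.12 for Amotl2 (-0.38 to 0.62). Without replicate 1 they were 0.23 ± 0.06 (adjusted p = 0.00296) and 0.40 ± 0.05 (adjusted p = 3.66e-08), so the direction of Ccn1 turned.

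For Tead1, Axl and Amotl1 the 3 FFSS libraries all lay above the static ones, replicate 1 by the least. Tead1 stood at 43.2, 89.3 and 86.9 CPM, a log2 fold change of 1.06 ± 0.24 (2.09-fold, adjusted p = 0.00758). Axl stood at 303, 475 and 441 CPM (0.63 ± 0.12, adjusted p = 0.00262). Amotl1 stood at 165, 207 and 217 CPM (0.43 ± 0.09, adjusted p = 0.00248). Without replicate 1 these log2 fold changes were 1.33 ± 0.09 for Tead1, 0.80 ± 0.05 for Axl and 0.54 ± 0.05 for Amotl1 (adjusted p = 1.95e-11, 5.20e-14 and 2.00e-09). The remaining factors and Lats2 had small values that did not pass with all libraries in the main fit. Yap1 stood at 189, 193 and 184 CPM (log2 fold change 0.13, adjusted p = 0.0805), Wwtr1 at 312, 300 and 298 CPM (0.12, 0.0811) and Lats2 at 103, 118 and 130 CPM (0.19, 0.0607). With library totals alone all 3 passed by edgeR, at 0.25, 0.24 and 0.32 (adjusted p = 0.00504, 0.00227 and 0.0134). That scaling shifted the median of all genes to 0.13. They also passed with another filter on low counts, filterByExpr (adjusted p = 0.0451, 0.0394 and 0.0462). For Yap1 and Wwtr1 all 3 FFSS libraries, replicate 1 included, lay above all static ones. Without replicate 1, Lats2 (0.28 ± 0.06, adjusted p = 0.00012) and Yap1 (0.13 ± 0.05, adjusted p = 0.0417) passed and Wwtr1 did not (0.10 ± 0.05, adjusted p = 0.082).

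The ratio of the 2 CCN genes within a library was higher in every control FFSS library than in the static ones, as it also was in DKO cells (0.451 to 0.531 against 0.356 to 0.446). The ratio of Ccn2 to Ccn1 per length of exon was 0.202, 0.294 and 0.260 in the control FFSS libraries, above the 0.0987 to 0.103 of the static libraries in every one, replicate 1 included. The ratio of Ankrd1 to Ccn1 was likewise 0.131, 0.282 and 0.231 against 0.0815 to 0.0850. In DKO cells that ratio overlapped, at 0.0276 to 0.0317 in FFSS and 0.0253 to 0.0329 in static libraries. In control FFSS replicate 1 all 3 genes lay below the static libraries. They stood there at 86.3% (Ccn2), 68.5% (Ankrd1) and 43.1% (Ccn1) of the static mean, so these ratios were higher while Ccn2 and Ankrd1 were not. The ratio of Amotl2 to Amotl1 was 2.60 in replicate 1 and 4.34 and 4.19 in replicates 2 and 3, under the static 4.63 to 4.78 in all 3.

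**Figure D4:**
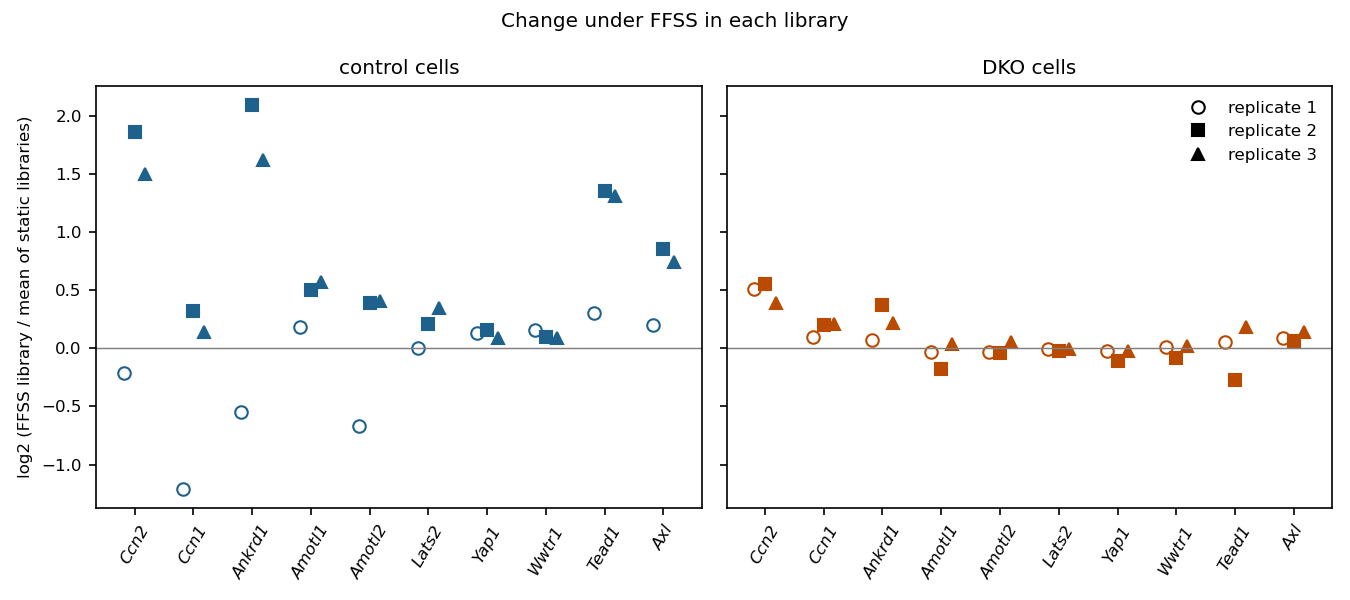
Log2 ratio of each FFSS library to the mean of the static libraries of its genotype (y axis) for the 10 genes (x axis), in control (left) and DKO cells (right); open circles are replicate 1, filled squares and triangles replicates 2 and 3. In control cells Ankrd1 reaches 2.09 and 1.62 in replicates 2 and 3 and -0.55 in replicate 1, while in DKO cells all points lie between -0.27 and 0.55.

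The share of reads outside annotated genes was lowest in replicate 1 among the control FFSS libraries, at 5.87%. It was 9.19% in replicate 2 and 10.04% in replicate 3. From replicate 2 to 3 Ccn2, Ccn1, Ankrd1, Tead1, Axl, Yap1 and Wwtr1 were lower, and Amotl1, Amotl2 and Lats2 were higher. The part of this share in the result was not tested. As a covariate this share had a common slope for both genotypes. The slope rests mostly on the control FFSS libraries, since the share differed by little within the other groups. With this covariate the log2 fold changes of Ccn2 and Ankrd1 turned to -0.39 and -0.80. Those of Tead1, Axl and Amotl1 were 0.15, 0.12 and 0.10, and none of these 5 passed. The 2 genes that passed with the covariate were both lower under FFSS, Ccn1 at -1.41 (adjusted p = 0.00234) and Amotl2 at -0.84 (adjusted p = 6.57e-07). The summed level of 6 osteoblast markers was 19600 to 23600 CPM in static control and 6450 to 19800 CPM in control FFSS libraries, and 3 of the 6 passed, all lower (Sp7, Col1a1 and Runx2). Of 7 osteocyte markers Irx5 and Ptprz1 were lower and Pdpn higher, of 7 chondrocyte markers Sox9 was lower, and of 2 haematopoietic markers Cd68 was lower and Csf1r higher. Their part was not tested either.

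The third comparison asked for the response of DKO cells to the same FFSS. By edgeR 0 of the 10 genes passed, where 0.872% of all genes did, and 0 exceeded 2-fold (0.0872% of all genes). Of the 10 genes 0 had an unadjusted p under 0.05, the smallest being 0.258, and DESeq2 passed 0 as well (13.5% and 3.69% of all genes). The median log2 fold change over the 10 genes was -2.1e-03. Ccn2 stood at 227, 233 and 209 CPM, above all 3 static DKO libraries, at 143%, 146% and 131% of their mean. Ccn2 and Axl were the 2 genes of the 10 whose FFSS libraries all lay above the static ones, as in 14.0% of all genes tested. Its log2 fold change was 0.49 ± 0.40 (adjusted p = 0.698), with a 95% interval from -0.43 to 1.40. It passed at the same size without control FFSS replicate 1 (0.49 ± 0.07, adjusted p = 0.000258). In that fit 10.5% of all genes passed, and Ccn2 was the 1 gene of the 10 to do so. It also passed with only the 6 DKO libraries (0.50 ± 0.04, adjusted p = 1.52e-07). With the share of reads outside genes as a covariate the log2 fold change was -2.2e-03 (adjusted p = 0.996). That value rests on the common slope, set mostly by the control FFSS libraries. Among the DKO FFSS libraries the share was 7.93%, 8.09% and 8.55%. Ccn2 stood at 227, 233 and 209 CPM in the same order. Whether the common slope holds within these 3 libraries was not tested.

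The other target genes moved by less. Axl stood at 188, 184 and 195 CPM (log2 fold change 0.10, adjusted p = 0.822). Ccn1 stood at 348, 372 and 377 CPM (0.17, adjusted p = 0.889), and passed with only the 6 DKO libraries (0.18 ± 0.05, adjusted p = 0.0362). Ankrd1 stayed low, at 8.35, 10.3 and 9.28 CPM (0.22, adjusted p = 0.937). It had 151 to 173 reads per library, and its 95% interval of -1.26 to 1.71 includes the control value of 1.42. Without control FFSS replicate 1 the DKO value was again 0.22 (adjusted p = 0.544), with an interval from -0.19 to 0.64, and the control value was 1.87.

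No factor or regulator had all 3 DKO FFSS libraries outside its static range on the same side. Tead1 stood at 38.2, 30.7 and 41.9 CPM, with 1 library below, 1 above and 1 within the static range, Yap1 at 161, 151 and 161 CPM, and Wwtr1 at 152, 143 and 153 CPM. Lats2 stood at 175, 173 and 175 CPM, Amotl1 at 107, 96.5 and 112 CPM and Amotl2 at 216, 214 and 229 CPM. The log2 fold changes of these 6 genes lay between -0.05 (Amotl1 and Yap1) and 2.9e-03 (Tead1), and the 95% interval of Tead1 ran from -0.54 to 0.54, or from -0.18 to 0.18 without control FFSS replicate 1 (3.8e-03 ± 0.09).

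Whether the genotypes responded differently was tested as an interaction, in which a negative value means a lower response in DKO cells. With all libraries 1 of the 10 genes passed, Amotl1, where 3.97% of all genes did, and 0 exceeded 2-fold (0.651% of all genes). The interaction of Amotl1 was -0.48 ± 0.12 (adjusted p = 0.0459), from a control change of 0.43 and a DKO change of -0.05. At an unadjusted p under 0.05 there were 4 of the 10 genes, where 23.8% of all genes were, and DESeq2 passed 3, where it passed 9.59%. The call of Amotl1 was lost when any library other than control FFSS replicate 1 was left out (adjusted p from 0.0728 to 0.124) and with RLE size factors (0.0513). The interactions of Ankrd1 (-1.19, 95% interval -3.08 to 0.69), Tead1 (-1.06, -1.82 to -0.30), Ccn2 (-0.80, -2.10 to 0.49) and Axl (-0.53, -0.91 to -0.15) did not pass by edgeR, and those of Tead1 and Axl passed by DESeq2 (adjusted p = 0.011 and 0.0497).

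Without control FFSS replicate 1, 8 of the 10 genes passed in the interaction, all negative, where 37.6% of all genes passed. The 2 that did not were Ccn1 (-0.06, adjusted p = 0.607) and Wwtr1 (-0.12, adjusted p = 0.182). Ankrd1 (-1.65 ± 0.23, adjusted p = 8.20e-05), Tead1 (-1.33 ± 0.12, adjusted p = 1.87e-08) and Ccn2 (-1.21 ± 0.11, adjusted p = 6.55e-08) exceeded 2-fold, where 7.60% of all genes did. Yap1 lay at the threshold (-0.18, adjusted p = 0.0497). With all libraries and the share of reads outside genes as a covariate, the 2 genes that passed were positive, Ccn1 at 1.19 (adjusted p = 0.011) and Amotl2 at 0.54 (adjusted p = 0.000394), and Ccn2 and Ankrd1 turned to 0.39 and 0.38, which did not pass.

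The last comparison set DKO against control cells when both had FFSS. Of the 10 genes 8 passed, 7 lower and 1 higher in DKO, where 56.6% of all genes passed and 29.6% were lower. The median log2 fold change was -0.94 over the 10 genes and -0.05 over all genes. Ankrd1 was 13.8-fold lower (log2 fold change -3.79 ± 0.59, adjusted p = 0.000521), Axl 2.15-fold (-1.11 ± 0.12, adjusted p = 8.88e-06), Amotl2 2.15-fold (-1.10 ± 0.23, adjusted p = 0.0021) and Wwtr1 2.03-fold (-1.02 ± 0.05, adjusted p = 1.80e-09). These 4 exceeded 2-fold, as 17.2% of all genes did. In 8 of the 10 genes the groups did not overlap, as in 58.4% of all genes. In this comparison 6 of 6 osteoblast markers passed, all higher in DKO (median log2 fold change 2.32), as did 6 of 7 chondrocyte markers, and of 7 osteocyte markers 5 were higher and 1 lower; their part was not tested. The count of genes over 2-fold was 7 without control FFSS replicate 1 and 2 without replicate 2. Without replicate 1 all 10 genes passed, where 65% of all genes did and 20.1% also exceeded 2-fold. The log2 fold change was then -4.24 ± 0.14 for Ankrd1, -1.38 ± 0.05 for Amotl2 and -1.28 ± 0.05 for Axl (adjusted p = 7.84e-12, 2.81e-20 and 2.97e-19), and Wwtr1 in DKO stood at 0.499 times its control level (adjusted p = 8.07e-17).

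Tead1, which with all libraries did not pass between the genotypes in static cells, was 1.98-fold lower in DKO under FFSS (log2 fold change -0.99 ± 0.24, adjusted p = 0.00508). Yap1 was 1.20-fold lower (-0.26 ± 0.05, adjusted p = 0.00114), and its groups, 184 to 193 CPM in control and 151 to 161 CPM in DKO, did not overlap. Amotl1 was 1.86-fold lower (-0.90 ± 0.09, adjusted p = 1.02e-06) and Lats2 1.49-fold higher (0.57 ± 0.08, adjusted p = 1.85e-05). When control FFSS replicate 1 was left out these were -1.25 ± 0.09 for Tead1, -0.26 ± 0.05 for Yap1, -1.01 ± 0.06 for Amotl1 and 0.49 ± 0.06 for Lats2 (adjusted p = 1.99e-11, 0.000109, 1.18e-15 and 1.14e-08). The CCN genes did not pass by edgeR in the main fit: Ccn1 had a log2 fold change of -0.76 (adjusted p = 0.065) and Ccn2 of 0.14 (adjusted p = 0.79). Ccn1 passed by DESeq2 (adjusted p = 0.039). By edgeR it passed with library totals alone (-0.97, adjusted p = 0.0321) and with the share of reads outside genes as a covariate (-0.57, adjusted p = 0.00233). Without control FFSS replicate 1 both genes were lower in DKO, by -1.10 (adjusted p = 6.26e-14) and -0.26 (adjusted p = 0.00602). The ratio of Ccn2 to Ccn1 per length of exon was 0.531, 0.509 and 0.451 in the DKO FFSS libraries, above the 0.202 to 0.294 of the control FFSS libraries and above the 0.356 to 0.446 of the static DKO libraries.

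**Figure D5:**
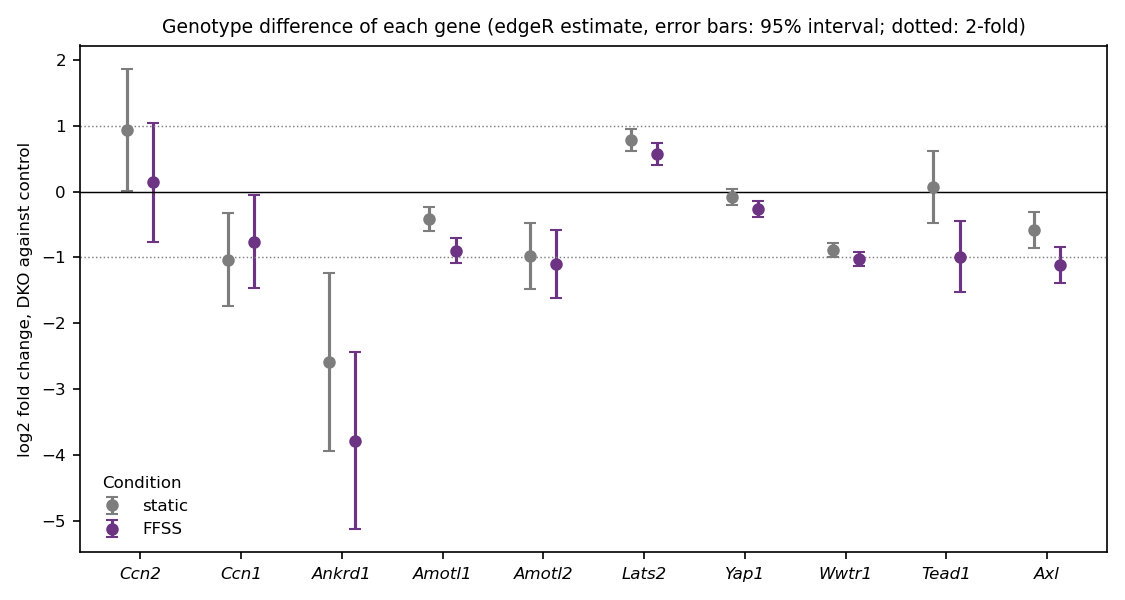
Log2 fold change of DKO against control (y axis) for each gene, in static cells (grey) and under FFSS (purple); points are edgeR estimates with all 12 libraries, error bars 95% intervals and dotted lines 2-fold. Lats2 lies above 0 in both conditions, Ankrd1 lies at -2.59 and -3.79, and the interval of Yap1 includes 0 in static cells only.

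The other genes of the pathway were read from 3 lists. Of 18 Hippo kinases and scaffolds, 11 passed between the static genotypes, 8 lower and 3 higher in DKO (median log2 fold change -0.20), where 54.2% of all genes tested passed. Amot, the third angiomotin, was lower (-0.84 ± 0.14, adjusted p = 0.000334), as were Amotl1 and Amotl2, and so was Ajuba, a LIM protein that binds LATS kinases (-0.68 ± 0.24, adjusted p = 0.0359). The atypical cadherins Fat1 (1.73 ± 0.10, adjusted p = 5.09e-09) and Fat4 (1.25 ± 0.21, adjusted p = 0.000412) were higher. Under FFSS 4 of the 18 passed in control cells, 3 higher, which were Frmd6 (0.48 ± 0.07, adjusted p = 0.000251), Amot (0.39 ± 0.14, adjusted p = 0.048, its libraries at 110 to 179 CPM overlapping the static 114 to 117) and Nf2 (0.25 ± 0.06, adjusted p = 0.0073), and 1 lower, the MST kinase gene Stk3 (-0.31 ± 0.08, adjusted p = 0.0111), where 35.8% of all genes passed. Without control FFSS replicate 1, 8 passed in control cells, 6 higher and 2 lower, where 55.0% of all genes passed, with Amot at 0.57 ± 0.06, Frmd6 at 0.56 ± 0.05, Nf2 at 0.30 ± 0.05 and Stk3 at -0.41 ± 0.07. In DKO cells 0 of the 18 passed by edgeR (0.872% of all genes), 2 had an unadjusted p under 0.05 (13.5%) and DESeq2 passed 1 (3.69%). In the interaction 0 of the 18 passed by edgeR as well (3.97%), 3 had an unadjusted p under 0.05 (23.8%) and DESeq2 passed 1 (9.59%). With the same library left out, 2 passed in DKO cells, 1 higher and 1 lower, where 10.5% of all genes did, and 5 passed in the interaction, all negative, where 37.6% did.

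Of the 7 other TEAD and VGLL genes 5 were tested. Between the static genotypes 3 passed, all lower in DKO, where 27.2% of all genes were lower: Tead4 (-1.29 ± 0.12, adjusted p = 4.86e-07), Tead3 (-0.78 ± 0.09, adjusted p = 6.44e-06) and Tead2 (-0.54 ± 0.09, adjusted p = 9.99e-05), unlike Tead1, which overlapped. Under FFSS in control cells Tead1 rose while Tead2 (-0.35 ± 0.09, adjusted p = 0.0076), Tead3 (-0.37 ± 0.09, adjusted p = 0.00796) and Vgll4, a cofactor that competes with YAP for TEAD (-0.41 ± 0.10, adjusted p = 0.00631), fell. Vgll3 passed at 1.13 ± 0.38 (adjusted p = 0.0477), although its control FFSS libraries, at 36.5 to 138 CPM, overlapped the static ones at 42.5 to 45.9 CPM. Of the 5, 4 passed in this comparison, where 35.8% of all genes did. In the interaction 1 of the 5 passed, Tead3 (0.54 ± 0.13, adjusted p = 0.0369), where 3.97% of all genes did. When control FFSS replicate 1 was left out, 4 passed under FFSS in control cells, 1 higher and 3 lower, and 4 in the interaction, 3 positive and 1 negative, where 55.0% and 37.6% of all genes passed. Vgll3 was then at 1.52 ± 0.07, Vgll4 at -0.55 ± 0.07, Tead2 at -0.47 ± 0.06 and Tead3 at -0.29 ± 0.07 under FFSS in control cells, and Tead3 at 0.46 ± 0.10 in the interaction.

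Of 16 further genes often used as YAP and TAZ readouts 15 were tested. Under FFSS in control cells 7 passed, 5 higher and 2 lower, with a median log2 fold change of 0.14, where 35.8% of all genes passed. Nuak2, a kinase (1.15 ± 0.29, adjusted p = 0.0103), and Crim1 (0.80 ± 0.28, adjusted p = 0.0494) passed as higher, although their FFSS libraries, at 8.22 to 21.7 and 43.4 to 113 CPM, overlapped the static ones at 6.68 to 8.54 and 46.9 to 51.2 CPM; without control FFSS replicate 1 they were 1.48 ± 0.11 and 1.12 ± 0.06. Nt5e, which makes adenosine outside the cell, fell (-0.95 ± 0.15, adjusted p = 0.000798), as did the forkhead factor gene Foxf2 (-0.54 ± 0.10, adjusted p = 0.0018); without that library they were -1.23 ± 0.08 and -0.67 ± 0.08. In DKO cells 0 of the 15 passed by edgeR (0.872% of all genes), 1 had an unadjusted p under 0.05 (13.5%) and DESeq2 passed 1 (3.69%). In the interaction 0 of the 15 passed by edgeR (3.97%), 6 had an unadjusted p under 0.05 (23.8%) and DESeq2 passed 3 (9.59%). Without control FFSS replicate 1, 11 passed in control cells, 9 higher and 2 lower, where 55.0% of all genes passed, 1 passed in DKO cells, lower, where 10.5% did, and 11 passed in the interaction, 2 positive and 9 negative, where 37.6% did. Between the static genotypes 10 passed, 6 lower and 4 higher in DKO (median -0.01), where 54.2% of all genes passed, with Fjx1 (-2.31 ± 0.13, adjusted p = 3.98e-09) and Nt5e (-2.05 ± 0.17, adjusted p = 3.77e-07) the lowest and Ccdc80 (1.88 ± 0.21, adjusted p = 2.60e-05) and Tgfb2 (1.61 ± 0.08, adjusted p = 2.35e-09) the highest.

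The genes whose pattern over the 12 libraries was closest to those of Ccn1, Ccn2 and Ankrd1 were found by the root mean square difference of centred log2 CPM, among 11413 genes. For Ccn1 they were Tnfaip3 (0.13), Ajuba (0.169) and Amotl2 (0.181). Amotl2 is one of the 10 genes. For Ccn2 they were Fhdc1 (0.21), F2r (0.255), the thrombin receptor, and Il18bp (0.255), and for Ankrd1 they were Npr3 (0.303), Serpinb9b (0.316) and Slco1a5 (0.347). Among the 10 genes themselves the closest were Amotl1 and Axl (0.149), followed by Ccn1 and Amotl2. These likenesses are descriptions over libraries that share their groups, and they include the low values of control FFSS replicate 1.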

How the data were processed

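RNA-seq libraries of Ocy454 cells were sequenced by the authors and, per the submitters' processing notes, aligned with STAR to the mm9 mouse genome and counted per Ensembl gene with HTSeq; the STAR version is not given in the sources used here, and the study's text names more than 1 HTSeq version. The values deposited are raw counts, 1 file per library; the 5 summary lines were kept out of totals and tests. Symbols and positions came from an mm9 annotation (98.9% of IDs matched), promoters from RefSeq.

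Genes with 0 counts in 2 or more libraries were removed, as in the study's methods. Counts were scaled by TMM and fitted with edgeR 4.0.16 (R 4.3.3; robust quasi-likelihood test, all 12 libraries, 4 groups, 8 residual degrees of freedom) with Benjamini-Hochberg adjustment over 14904 genes; the script was tested on simulated data. A gene passed at adjusted p under 0.05; fold limits of 2 are named where used. The 10 genes, the other lists and the tests were chosen with earlier results of these data known. Intervals are 95%, and those of counts cover counting error only. Genes named from the other pathway lists come from the 2 highest and 2 lowest that passed in a comparison. The alternatives were RLE factors or library totals, other filters, 6 libraries, DESeq2 1.42.0, a replicate block, a covariate, no fold limit and each library left out.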

Additional observations from a re-analysis of the deposited data

Results flagged for a closer look

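Amotl1 passed the test of the interaction between FFSS and genotype with all libraries (log2 fold change -0.48, adjusted p = 0.0459 by edgeR; 3 of 3 control FFSS libraries lay above all static ones, while in DKO 1 lay below and 2 within the static range). The call was lost in 11 of the 12 fits that left out 1 library (adjusted p from 0.0728 to 0.124), with RLE size factors (0.0513), with the replicate block (0.0641) and with the share of reads outside genes as a covariate (0.0583). The interaction of Lats2 was -0.21 (adjusted p = 0.254) and that of Yap1 -0.18 (adjusted p = 0.181). Neither passed, and both drew attention because every control FFSS library lay above and every DKO FFSS library below the static mean of its genotype. For Lats2 this rests on small steps: control FFSS replicate 1 lay 3.4e-03 above on the log2 scale, and the DKO libraries lay -0.01 to -0.02 from their mean.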

How the results depend on the processing

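The 50 log2 fold changes of the 10 genes were recomputed under up to 20 alternatives, 990 values in all. Of these 884 kept their direction and side of the threshold, and 36 turned direction, some of which also crossed the threshold. Among those that kept their direction 37 passed newly and 33 no longer passed. The cause was not tested. The genotype differences held best: 8 of 10 genes under FFSS and 6 of 10 in static cells kept both in every alternative, against 0 of 10 for FFSS in control cells.

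Under FFSS in control cells 4 genes passed, where 35.8% of all genes did. The number was 8 with library totals alone, 8 with the filterByExpr filter, 5 with DESeq2 and 2 with the covariate (share of reads outside genes). Those 2 were Ccn1 and Amotl2, both lower and neither among the 4. The share of all genes that passed in these other fits is not given here, so their counts are not set against it. Library totals alone also shifted the median of all genes to 0.13. The number over 2-fold, 2, was 1 with no filter, 1 with 6 libraries, 1 with the covariate (Ccn1, lower), 3 with library totals, filterByExpr or DESeq2, where Ankrd1 was added, and 4 with no fold limit. In DKO cells the number passed, 0, was 2 with 6 libraries and 1 with the covariate (Amotl2, -0.30). In the interaction, with 1 passed and 0 over 2-fold, the number passed was 0 with RLE factors, 3 with DESeq2 (1 over 2-fold) and 2 with the covariate (Ccn1, 1.19, over 2-fold, and Amotl2, 0.54), and 1 with no fold limit. With no fold limit 7 (static) and 8 (FFSS) genotype differences replace 2 and 4.

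Leaving out 1 library in turn gave 3 to 9 genes passed and 0 to 3 over 2-fold for FFSS in control cells, 0 to 1 passed in DKO cells, 0 to 8 passed and 0 to 3 over 2-fold in the interaction, and 1 to 3 (static) and 2 to 7 (FFSS) genotype differences over 2-fold. The highest counts of genes passed came without control FFSS replicate 1. Of the log2 fold changes that turned, Ccn1 ran from -0.39 to 0.23 and Amotl2 from -0.05 to 0.40 under FFSS in control. In DKO cells the ranges were -0.10 to 4.4e-03 for Amotl1, -0.04 to 0.03 for Amotl2, -0.05 to 0.04 for Lats2, -0.04 to 0.01 for Wwtr1 and -0.10 to 0.12 for Tead1. In the interaction they were -0.06 to 0.55 for Ccn1 and -0.41 to 0.04 for Amotl2, and between FFSS genotypes -0.26 to 0.54 for Ccn2.

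Pairing by replicate number was not seen in the mean correlation of deviations, 0.00226 for the same number (-0.0603 to 0.0631). For other numbers it was -0.00116 (-0.088 to 0.093). These values do not show how the libraries were handled. With the replicate as a block 1 gene exceeded 2-fold for FFSS in control cells and 0 passed in the interaction; the counts passed elsewhere were 3, 0, 7 and 8.

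Library totals alone shifted the median of all genes to 0.13 for FFSS in control cells, -0.13 in the interaction and -0.25 for DKO against control under FFSS, and turned Ccn1 under FFSS in control (0.03), Amotl2 under FFSS in DKO (4.0e-03), Tead1 between static genotypes (-0.01) and Ccn2 between FFSS genotypes (-0.08). With 6 libraries Amotl2 in DKO turned to 2.5e-03. The covariate had a common slope that rested mostly on the control FFSS libraries. With the covariate Ccn2 (-0.39), Ankrd1 (-0.80), Amotl2 (-0.84) and Lats2 (-0.05) turned under FFSS in control, Ccn2 (-2.2e-03), Ccn1 (-0.22), Ankrd1 (-0.43), Tead1 (-0.28) and Axl (-0.06) in DKO, Ccn2 (0.39), Ankrd1 (0.38) and Amotl2 (0.54) in the interaction, and Tead1 between static genotypes (-0.44).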
